A study of Arabidopsis thaliana with 12 samples.

Results

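The genes described here are 9 genes of the salicylic acid pathway of Arabidopsis thaliana: ICS1 (AT1G74710), EDS5 (AT4G39030), PBS3 (AT5G13320), EDS1 (AT3G48090), PAD4 (AT3G52430), NPR1 (AT1G64280), PR1 (AT2G14610), PR2 (AT3G57260) and PR5 (AT1G75040). They were chosen by name, for their known place in the pathway, out of 27444 protein-coding genes of chromosomes 1 to 5. RNA was sequenced from whole seedlings, 14 days old, of 4 genotypes: the val1 mutant, the val2 mutant, the val1 val2 double mutant and the wild type (WT), with 3 biological replicates of each. VAL1 (AT2G30470) and VAL2 (AT4G32010) encode transcriptional repressors with a B3 DNA-binding domain that keep seed genes silent after germination. All 4 genotypes had the same treatment: seeds were kept for 3 days at 4 °C in the dark, and the seedlings grew at 22 °C with 16 h light and 8 h darkness a day, on 0.6% agar with 1% sucrose. Each RNA sample came from about 100 mg of seedlings, so it pools many plants, and the labels name neither the accession of the plants nor the val1 and val2 alleles. No pathogen or salicylic acid treatment is named in the labels.

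Salicylic acid is a plant hormone of defence against pathogens that feed on living tissue. Most of it is made from chorismate in the plastid by isochorismate synthase, exported as isochorismate by the carrier EDS5 and turned into salicylic acid in the cytosol through the enzyme PBS3. The lipase-like proteins EDS1 and PAD4 form a complex that passes on signals from immune receptors and raises salicylic acid synthesis. The hormone is perceived by NPR1 and its relatives, which act with TGA and WRKY transcription factors on genes for secreted pathogenesis-related (PR) proteins. PR1, PR2 and PR5 are the classical readouts of the pathway in leaves.

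Levels are FPKM, fragments scaled to transcript length and to the total of the library, taken from the authors' values for assembled transcript loci. Each gene's level is the sum of its loci's deposited FPKM, each times the share of the gene covered. It is therefore below the deposited FPKM where a single locus covers only part of the gene. The authors' bounds belong to the deposited FPKM. Where a library held no locus for a gene, its value is listed at 0. That means that the assembly found no transcript, not that none was present. The lowest FPKM listed in any library lay between 0.211 and 0.437, which does not bound the level of a gene listed at 0. Changes are differences of log2(FPKM + 1) between genotypes, from 1 limma fit over 17840 genes, and a gene was called where its p, adjusted by Benjamini-Hochberg, was under 0.05. These differences understate the change of genes at low levels.

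Before the results, the libraries were checked against their labels and against tissue markers. The labels do not say where VAL1 and VAL2 are mutated, so a level over the gene need not be lost in a mutant. VAL1 stood at 5.07 to 12.7 FPKM in val1 and 11.1 to 22.6 in val1 val2, against 14.5 to 17.7 in WT. VAL2 stood at 9.73 to 11.3 FPKM in val2 and 12.6 to 13.2 in val1 val2, against 17.6 to 22.0 in WT. The assembled locus over VAL1 ran unbroken through the gene in val1 replicate 1 and in val1 val2 replicate 3. It was broken or shortened in the other val1 and val1 val2 libraries, each with a piece that began at chr2:12982815. The part before that piece stood at 0.504 and 0.949 FPKM as deposited in val1 replicates 2 and 3. It had no locus in val1 val2 replicates 1 and 2. The VAL1 locus was also broken in val2 replicate 1, which is not labelled val1, but at another place, with 20.2 and 16.2 FPKM on either side. A break alone therefore does not mark a val1 lesion. The locus over VAL2 was unbroken in val2 replicate 1 and in val1 val2 replicates 2 and 3. Genotypes are therefore named as labelled, and the main values are also given without these libraries. The double mutant stood far from the other genotypes over all genes, with correlations of 0.641 to 0.778 with WT libraries, against 0.924 to 0.968 among its own libraries. Seed markers (5 of 9 storage protein and oil body genes with a value in every library) summed to 56.8 to 61.5 FPKM in val1, 4.41 to 5.79 in val2 and 24066 to 45887 in val1 val2, and all 5 were listed at 0 in the WT libraries. Leaf markers (4 of 5 photosynthesis genes) summed to 9007 to 9685 FPKM in val1, 12384 to 13977 in val2 and 1202 to 4241 in val1 val2, against 10628 to 12038 in WT. Root markers (all 4) summed to 83.8 to 123 FPKM in val1, 55.5 to 62.7 in val2 and 16.0 to 23.8 in val1 val2, against 92.5 to 100.5 in WT. SAG12, the standard marker of leaf senescence, was listed at 0 in all 12 libraries. The part of this altered tissue makeup in the results below was not tested, and in whole seedlings a change in cell types and a change in RNA per cell cannot be told apart.

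In the double mutant, PR1, PR2, PBS3, ICS1 and PAD4 rose against WT, EDS1 and, close to the threshold, NPR1 fell, and EDS5 and PR5 did not pass the test. In each single mutant the only member called was EDS1, which was lower. The plot of levels by library shows each gene.

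**Figure D1:**
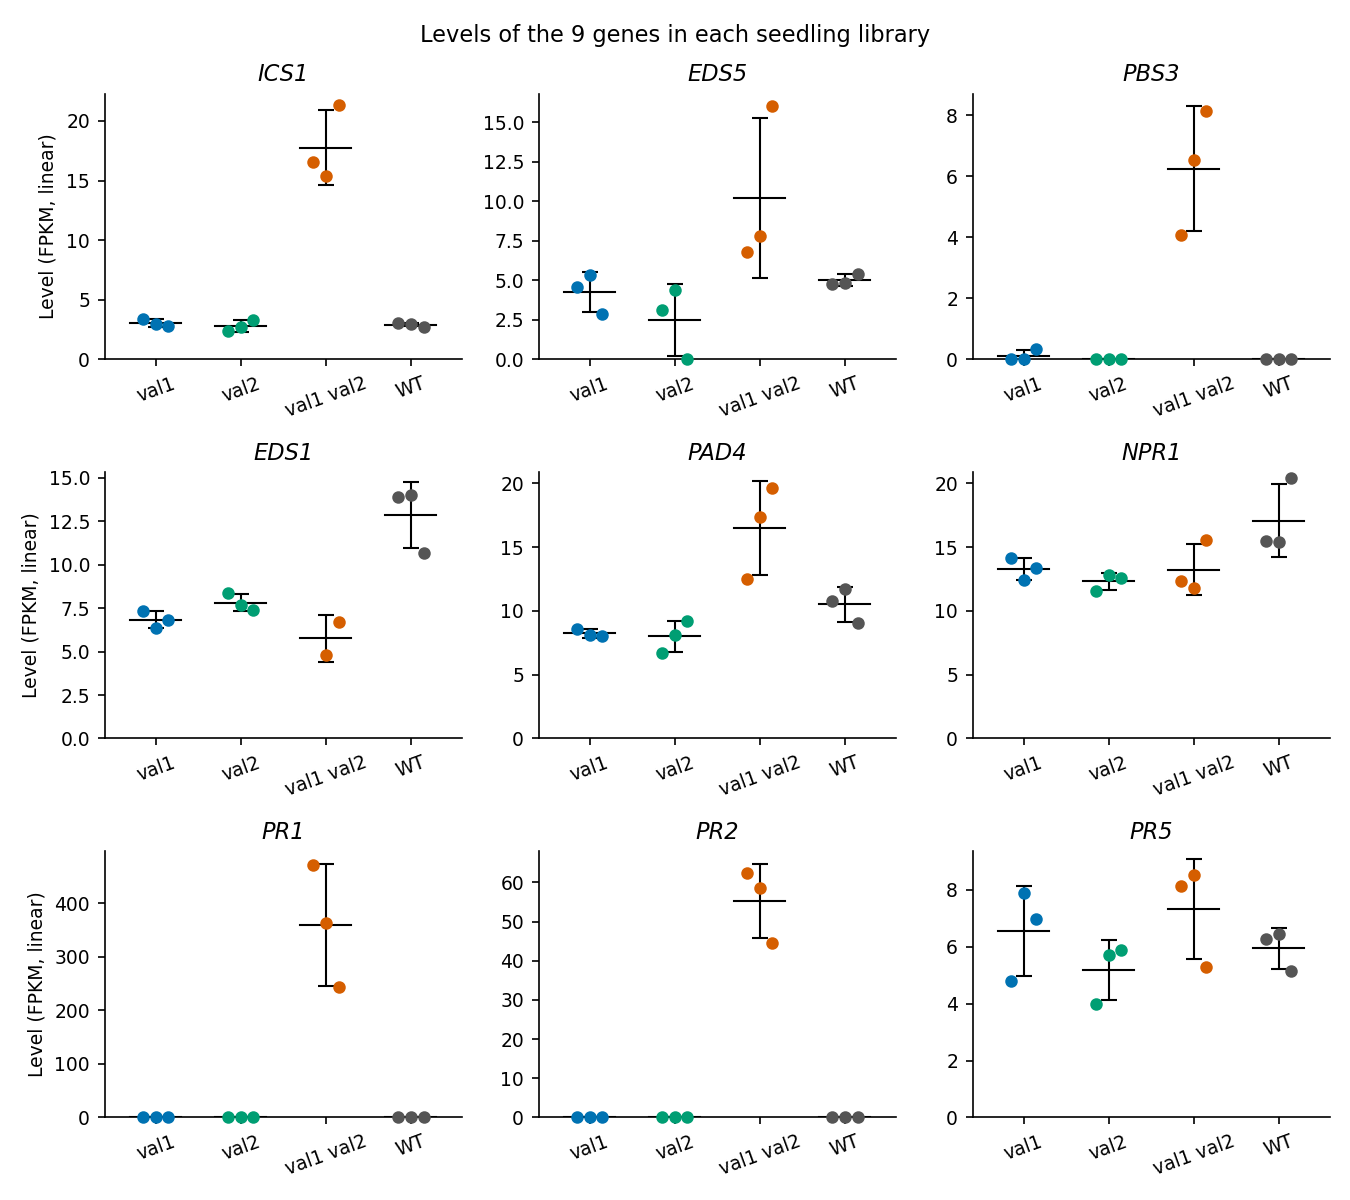
Level of each of the 9 genes in the 12 seedling libraries, in FPKM on a linear axis from 0, by genotype (val1, val2, val1 val2, WT); points are libraries, horizontal lines means and bars SD (n = 3, but n = 2 for EDS1 in val1 val2). PR1 and PR2 are at 0 in all libraries except those of val1 val2, where PR1 reaches 471 FPKM, and EDS1 is highest in WT.

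Of the 9 genes, all were tested, but PR1, PR2 and PBS3 passed the filter on low values through the val1 val2 libraries alone. These 3 therefore had to differ between the double mutant and the rest, and the counts of members below describe the genes without supporting more than that. Of all 17840 genes tested, 3.73% passed the filter in this way. In val1 val2 against WT 7 of the members were called, 5 higher and 2 lower. Over all genes tested 58.8% were called in this comparison, 24.4% higher and 34.4% lower, and the median log2 change was -0.15. In val1 and in val2 1 of the 9 was called against WT, where 3.90% of all genes (2.18% higher and 1.72% lower) and 4.43% (1.75% higher and 2.67% lower) were called.

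The enzymes and the carrier of salicylic acid synthesis come first. ICS1 encodes isochorismate synthase, which supplies the precursor of most pathogen-induced salicylic acid. Its assembled locus, chr1:28070300-28074153 in val1 val2 replicate 3 (build TAIR10, as the files give it), covered 99.2% of the gene. ICS1 stood at 3.43, 2.95 and 2.81 FPKM in the val1 libraries. It stood at 2.37, 2.75 and 3.30 FPKM in the val2 libraries. In the val1 val2 libraries it reached 16.6, 15.4 and 21.3 FPKM, against 3.04, 2.97 and 2.76 FPKM in WT. All 3 double-mutant libraries lay far above all 9 others, which overlapped with each other. Values of val1 val2 lay all above those of WT for 27.1% of all genes tested, above those of val1 for 28.3% and above those of val2 for 27.7%.

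The log2 change of ICS1 in val1 val2 against WT was 2.25 (SE 0.143, limma adjusted p = 3.97e-07), which is 4.74-fold on the FPKM + 1 scale. On that scale it was 4.59-fold against val1 and 4.91-fold against val2 (adjusted p = 5.25e-07 and 3.07e-07). The changes of the single mutants against WT were 0.05 for val1 (95% interval -0.27 to 0.36) and -0.05 for val2 (95% interval -0.37 to 0.26), and neither was called. The interaction, by which the double-mutant change exceeds both single-mutant changes added up, was 2.25 (SE 0.202, adjusted p = 1.12e-05). Without the 2 libraries with an unbroken VAL1 locus the double-mutant change was 2.11, and without the 3 with an unbroken VAL2 locus, which leaves 1 double-mutant library, it was 2.16 (adjusted p = 1.70e-06 and 2.46e-05).

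PBS3 encodes the enzyme that joins glutamate to isochorismate, the step from which salicylic acid is released. It was listed at 0 in the val2 and WT libraries and in val1 replicates 1 and 2, and at 0.354 FPKM in val1 replicate 3. The val1 val2 libraries held 4.09, 6.52 and 8.14 FPKM. Among the double-mutant libraries the locus covered 95.8% of the gene in replicate 2, but 49.4% and 49.5% in replicates 1 and 3. The low locus of val1 replicate 3 covered 98.0%. Before scaling by the share covered, the deposited FPKM were 8.27, 6.81 and 16.4 in val1 val2 replicates 1, 2 and 3. The authors' confidence bounds for the 8.27 FPKM of replicate 1 ran from 0 to 27.5 FPKM, so that value is imprecise. The change in val1 val2 against WT on the log2(FPKM + 1) scale was 2.82 (SE 0.208, limma adjusted p = 1.26e-06), and the interaction was 2.67 (adjusted p = 4.70e-05). The double-mutant change was 2.63 without the 2 libraries with an unbroken VAL1 locus and 2.35 without the 3 with an unbroken VAL2 locus (adjusted p = 5.63e-06 and 7.24e-05).

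EDS5 encodes the carrier that moves isochorismate out of the plastid. It stood at 4.59, 5.33 and 2.86 FPKM in val1 and at 3.10, 4.40 and 0 FPKM in val2, where no locus was assembled over it in replicate 3. It reached 6.78, 7.81 and 16.0 FPKM in val1 val2, against 4.76, 4.87 and 5.44 FPKM in WT. The double-mutant and WT values did not overlap, but replicate 3 of the double mutant stood well above the other two, and the log2 change of 0.81 (SE 0.536, limma adjusted p = 0.218) was not called.

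Without val2 replicate 3, the library listed at 0, the change of EDS5 against WT was called with the same value of 0.81 (adjusted p = 0.0380). EDS5 was called in val1 val2 against val2 (log2 change 1.91, SE 0.536, adjusted p = 0.0103) and in the interaction (2.13, SE 0.758, adjusted p = 0.0399). Neither call held without the libraries with an unbroken VAL1 locus (adjusted p = 0.0556 and 0.113) or without those with an unbroken VAL2 locus (0.149 and 0.182). The interaction was also lost when any of 8 of the 12 libraries was left out: each WT and each val1 library and val1 val2 replicates 2 and 3, with adjusted p up to 0.0882. EDS5 overlaps the end of AT4G39040, which lies on its own locus. As deposited, that locus stood at 16.3, 19.3 and 32.0 FPKM in val1 val2, against 85.2, 88.8 and 87.2 FPKM in WT. It was above the deposited FPKM of the EDS5 locus in each of these libraries. The files do not give the strand of reads, so reads in the overlap cannot be assigned with certainty.

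EDS1 and PAD4, the partners of the immune signalling complex, moved in opposite directions in the double mutant. EDS1 stood at 7.31, 6.36 and 6.83 FPKM in val1 and at 8.35, 7.70 and 7.40 FPKM in val2. In val1 val2 it stood at 4.80 and 6.73 FPKM in replicates 2 and 3, against 13.9, 14.0 and 10.6 FPKM in WT. In val1 val2 replicate 1 its locus was fused with that of the neighbour EDS1B, a near-identical copy, at 1.93 FPKM over both genes, and EDS1 was left missing there. All mutant values lay below all WT values.

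The log2 change of EDS1 was -0.82 in val1 (SE 0.146, limma adjusted p = 0.0137), -0.64 in val2 (SE 0.146, adjusted p = 0.0389) and -1.04 in val1 val2 (SE 0.163, n = 2 for val1 val2 and 3 for WT, adjusted p = 0.000417). The interaction of 0.42 was not called (adjusted p = 0.146). Values lay all below those of WT for 18.1% of all genes in val1, 16.4% in val2 and 37.2% in val1 val2. The call in val1 was lost without WT replicate 1 or 2 or val1 replicate 2 or 3 (adjusted p 0.0535 to 0.0646). The call in val2 was lost without WT replicate 1 or 2 or any single val1 or val2 library (adjusted p 0.0576 to 0.147). The call in val1 val2 was kept in each of the 12 leave-one-out fits, with adjusted p up to 0.00498. Because reads of EDS1 and EDS1B may have been shared between the copies, the level of EDS1 is uncertain. EDS1B itself was low, at 1.69 ± 0.119 FPKM in val1 val2 (SD, n = 2) and 0.916 ± 0.796 in WT (SD, n = 3), and was not called (log2 change 0.60, adjusted p = 0.213).

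PAD4 stood at 8.61, 8.07 and 8.03 FPKM in val1 and at 6.73, 8.08 and 9.19 FPKM in val2. It reached 12.5, 17.4 and 19.7 FPKM in val1 val2, against 10.8, 11.7 and 9.03 FPKM in WT. The double-mutant libraries were all above WT, the nearest by less than 1 FPKM. The log2 change was 0.59 (SE 0.168, limma adjusted p = 0.0115). It was 0.90 against val1 (adjusted p = 0.000965) and 0.95 against val2 (adjusted p = 0.000635), and the interaction was 1.26 (SE 0.238, adjusted p = 0.00158). The single-mutant changes against WT, -0.31 in val1 and -0.36 in val2, were not called (adjusted p = 0.388 and 0.298). Without the 2 libraries with an unbroken VAL1 locus the double-mutant change was 0.46 (adjusted p = 0.0490). Without the 3 with an unbroken VAL2 locus, which leaves only replicate 1 of the double mutant, it was 0.23 and was not called (adjusted p = 0.226).

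NPR1, the receptor and co-activator that links salicylic acid to PR genes, was at similar levels in all 3 mutants. It stood at 14.1, 12.4 and 13.4 FPKM in val1, at 11.6, 12.8 and 12.5 FPKM in val2 and at 12.3, 11.8 and 15.5 FPKM in val1 val2, against 15.5, 15.4 and 20.4 FPKM in WT. The double mutant overlapped WT through its replicate 3. Its log2 change of -0.34 in val1 val2 (SE 0.136, limma adjusted p = 0.0498) was just inside the threshold, and those of -0.33 in val1 and -0.43 in val2 were not called (adjusted p = 0.242 and 0.111). The double-mutant call was lost in 14 of 20 alternatives, among them the fits without WT replicate 3, without val1 val2 replicate 1 or 2 and without any single val1 or val2 library, with adjusted p up to 0.192. The authors' bounds for NPR1 in val1 val2 replicate 1 ran from 0 to 27.1 FPKM. The locus of NPR1 overlaps another assembled locus at 1 end in every library except WT replicate 3. That library had no such second locus and held the highest NPR1 value.

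The PR genes are the outputs of the pathway. Of the 9 members PR1 and PR2 had the largest changes in val1 val2 against WT, and PR5 the smallest. PR1 encodes a small secreted protein used as the standard marker of salicylic acid signalling. It was listed at 0 in all val1, val2 and WT libraries. In val1 val2 it reached 471, 364 and 243 FPKM, from loci such as chr2:6241816-6242567 in replicate 2 that covered 76.6% to 80.4% of the gene. Before scaling by that share, the deposited FPKM of its loci were 597, 453 and 318. PR1 was the 209th, 265th and 481st most abundant of the 18141, 18025 and 18243 genes with a locus in those libraries.

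On the log2(FPKM + 1) scale PR1 differed by 8.44 between val1 val2 and WT (SE 0.193, limma adjusted p = 1.48e-10). Because the other groups are all at 0, the spread in this estimate comes from the double mutant alone, and the SE and p of genes with this pattern are too small. The difference ranked 38th from the highest of 17840. It was 8.70 without the 2 libraries with an unbroken VAL1 locus and 8.88 without the 3 with an unbroken VAL2 locus. No fold change is given, since WT was listed at 0.

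PR2 encodes a secreted glucanase that breaks down the glucan of fungal cell walls. It too was listed at 0 in all val1, val2 and WT libraries and held 62.4, 58.7 and 44.4 FPKM in those of val1 val2. The difference from WT was 5.80 on the log2(FPKM + 1) scale (SE 0.134, limma adjusted p = 1.63e-10), the 145th highest of all genes tested. It was 5.94 without the 2 libraries with an unbroken VAL1 locus and 5.99 without the 3 with an unbroken VAL2 locus. The neighbours of PR2 in the genome, AT3G57250 and the glucanase gene BG1, were listed at 0 in both genotypes.

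PR5, which encodes a secreted thaumatin-like protein, did not follow PR1 and PR2. It stood at 4.81, 7.89 and 6.98 FPKM in val1 and at 3.98, 5.72 and 5.88 FPKM in val2. It stood at 8.15, 8.53 and 5.29 FPKM in val1 val2, against 6.27, 6.44 and 5.13 FPKM in WT. Double mutant and WT overlapped, and the log2 change of 0.24 (SE 0.212, 95% interval -0.23 to 0.71, limma adjusted p = 0.349) was not called. Without val1 replicate 1 and val1 val2 replicate 3, the libraries with an unbroken VAL1 locus, it was 0.43 and was called (adjusted p = 0.0462). The interval of the change in PR5 lies far below the differences of 5.80 for PR2 and 8.44 for PR1, but the difference between genes was not tested.

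**Figure D2:**
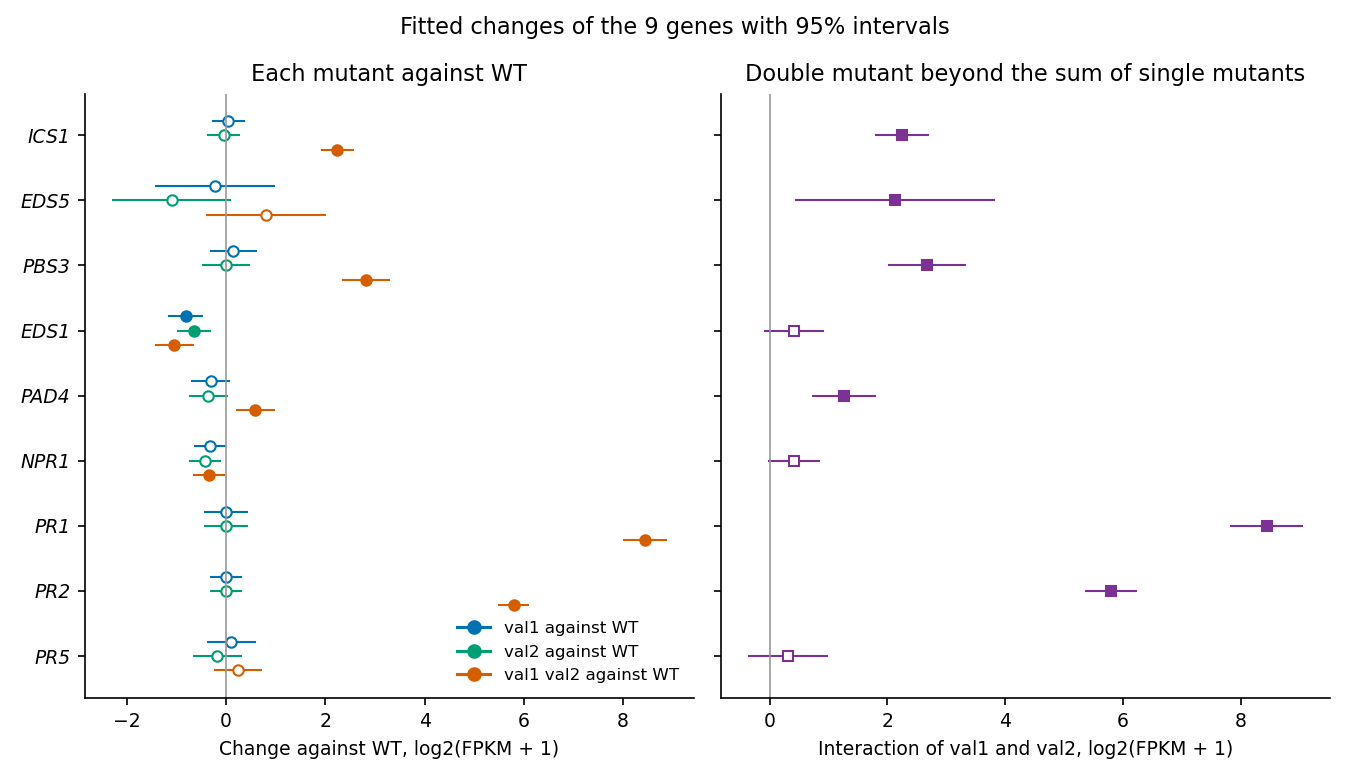
Fitted differences of log2(FPKM + 1) for the 9 genes with 95% intervals: left, val1, val2 and val1 val2 against WT; right, the interaction (the double-mutant change beyond both single-mutant changes added up). Filled symbols are called at an adjusted p under 0.05; PR1 at 8.44 and PR2 at 5.80 lie farthest to the right, and the single-mutant intervals of ICS1, EDS5, PR1, PR2, PR5, PAD4 and PBS3 include 0.

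The interaction was called for 6 of the members, all with a positive sign, where it was called for 46.7% of all genes, 21.3% with a positive and 25.4% with a negative sign. For PR1 and PR2 it equals the difference of the double mutant from WT, since both single mutants were at the WT value of 0. Against the single mutants, 5 members were higher in val1 val2 than in val1 (PR1, PR2, ICS1, PAD4 and PBS3) and 6 higher than in val2 (the same with EDS5), with none lower. Over all genes 58.1% were called against val1 (25.5% higher and 32.6% lower) and 59.8% against val2 (24.9% higher and 34.8% lower). The comparisons with WT, val1 and val2 share the double-mutant libraries, so they do not stand as separate evidence. Between the single mutants (val2 against val1) none of the 9 was called, where 6.35% of all genes were (2.62% higher and 3.73% lower).

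The 3 val1 val2 libraries differed among themselves. Over all genes replicate 3 stood apart, with r of 0.924 and 0.949 with replicates 1 and 2, which had an r of 0.967 with each other. The share of all genes lowest or highest in replicate 3 was not computed, so the order of the members has no background beside it. PR1, PR2 and PR5 were lowest in replicate 3, at 0.677, 0.806 and 0.723 of their mean over the 3 libraries. ICS1, NPR1, EDS1, PAD4, PBS3 and EDS5 were highest in the same library, at 1.17 (NPR1 and EDS1) to 1.57 (EDS5) of their means. EDS1 had values in replicates 2 and 3 only. In replicate 3 the summed seed markers were at 0.666 and the summed leaf markers at 1.71 of their means, and this library was the nearest to WT over all genes. The part of tissue makeup in this spread was not tested. With 3 libraries no relation between members and markers can be tested either.

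**Figure D3:**
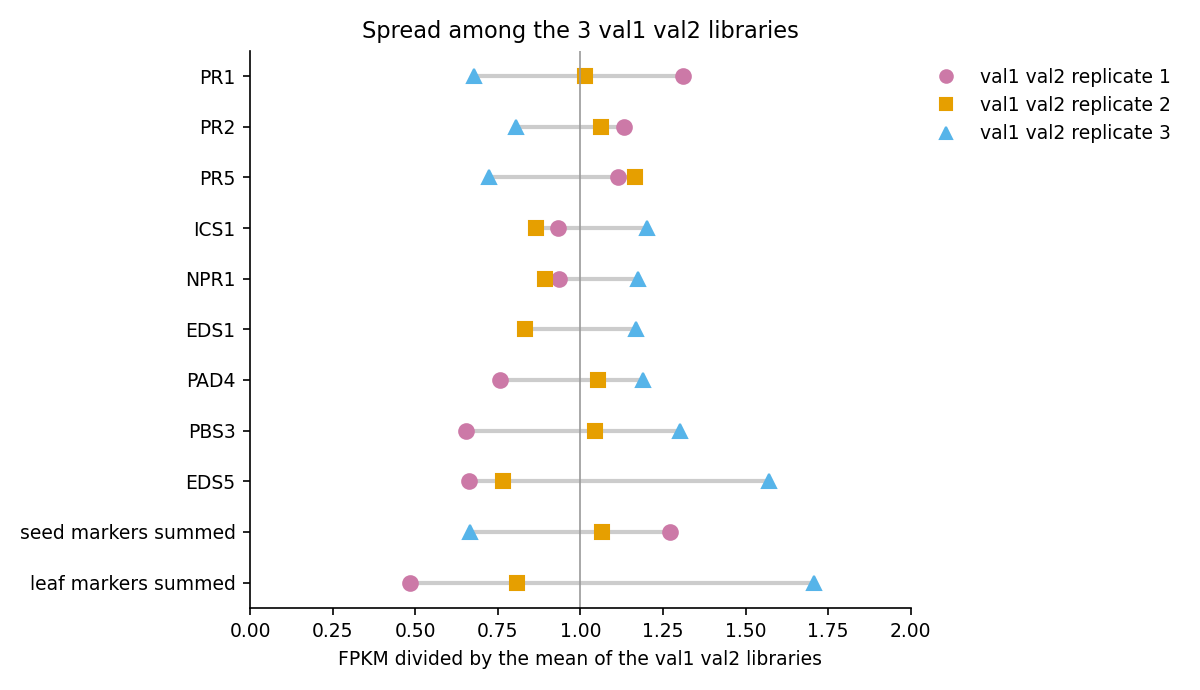
FPKM of each gene, and of the summed seed and leaf markers, in each of the 3 val1 val2 libraries, divided by the mean over those libraries (for EDS1 over 2, replicate 1 being missing). Replicate 3 (triangles) is lowest for PR1, PR2, PR5 and the seed markers and highest for the other 6 genes and the leaf markers.

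Other genes of the pathway were examined as 7 lists with 80 genes in all, of which 74 were tested. In val1 5 of the 74 were called higher than in WT and none lower, in val2 2 higher and 5 lower, and in val1 val2 42 higher and 16 lower. The shares of all genes tested were 2.18% higher and 1.72% lower in val1, 1.75% and 2.67% in val2, and 24.4% and 34.4% in val1 val2. Of the 74, 12 passed the filter through val1 val2 alone, so that part of the 42 follows from the filter. The median log2 change of the 74 was -0.02 in val1, -0.01 in val2 and 1.00 in val1 val2, where the medians of all genes tested were -0.02, 0.00 and -0.15. The plot of the lists gives each gene. Genes are named from a list if they were among its 3 called genes with the largest change in that comparison.

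**Figure D4:**
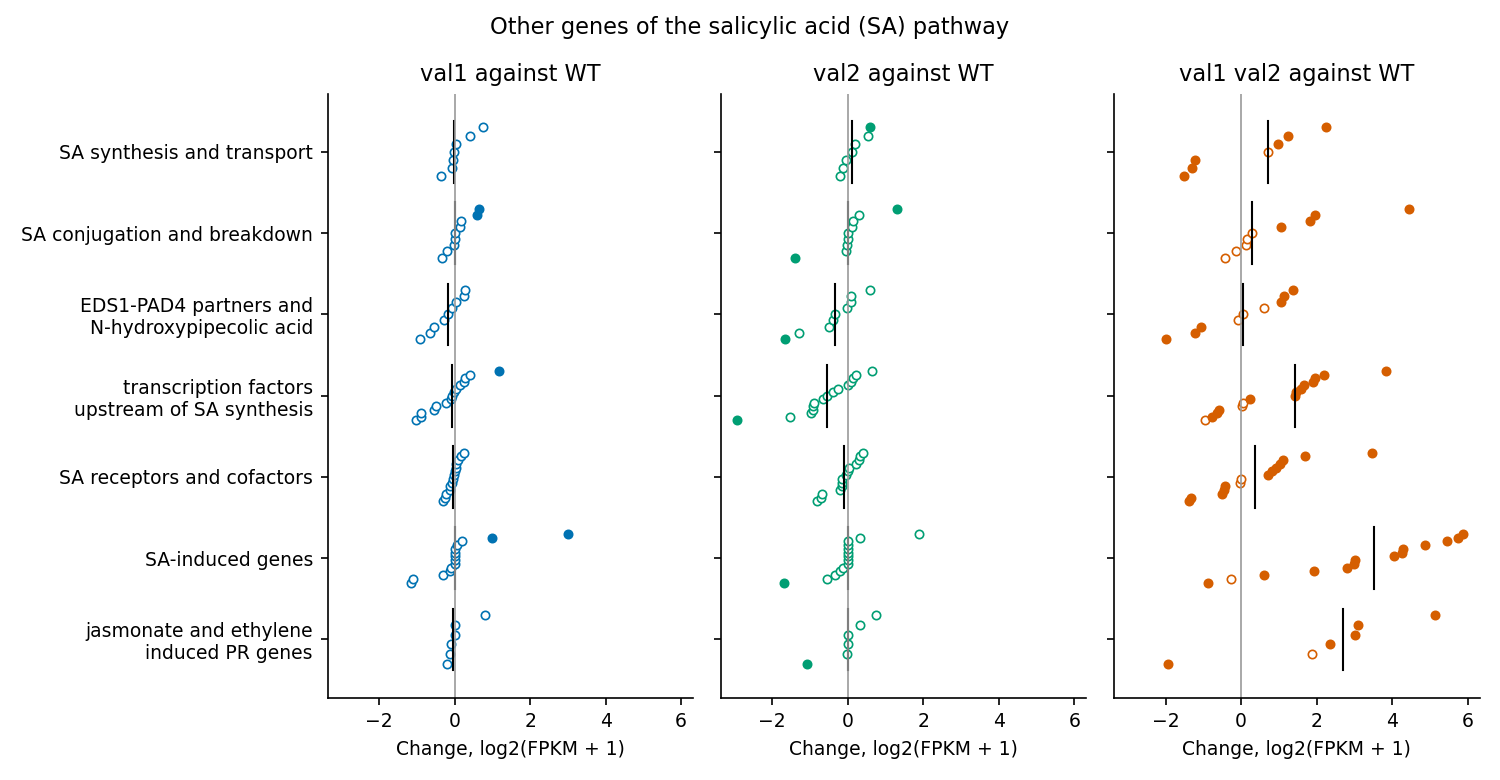
Differences of log2(FPKM + 1) from WT in val1, val2 and val1 val2 for the tested genes of 7 lists of the salicylic acid pathway; each point is a gene, filled where called at an adjusted p under 0.05, and black lines are list medians. In val1 val2 the median of the 14 salicylic acid-induced genes is 3.53, while lists near the top hold genes on both sides of 0.

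Genes that answer to salicylic acid, 14 in the list, were mostly higher in the double mutant. Against WT 12 were called higher and 1 lower, where 24.4% of all genes were called higher and 34.4% lower. The median log2 change of the list was 3.53. Of the 14, 6 passed the filter through the double mutant alone, so part of the 12 follows from the filter. SAG13, a short-chain dehydrogenase gene, averaged 64.6 ± 31.9 FPKM in val1 val2 (SD, n = 3), and PNP-A, which encodes a small secreted peptide, 55.1 ± 19.5 FPKM. Both were listed at 0 in WT (differences on the log2(FPKM + 1) scale 5.88 and 5.74, adjusted p = 1.46e-07 and 6.64e-09). SAG13 and PNP-A are among the 6 that passed the filter through the double mutant alone, so their differences follow in part from the filter. PCC1, a pathogen- and clock-responsive gene, averaged 135 ± 74.4 FPKM in val1 val2 and 2.88 ± 3.36 in WT (SD, n = 3 each; log2 change 5.44, limma adjusted p = 9.17e-05). The gene called lower was NUDT6, named after its values were seen, at 0.480 ± 0.421 FPKM in val1 val2 and 1.66 ± 0.194 in WT (SD, n = 3 each).

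Of the 14 genes of this list, 2 were called higher and none lower in val1 against WT. None was called higher and 1 lower in val2. The shares of all genes were 2.18% higher and 1.72% lower in val1, and 1.75% and 2.67% in val2. PCC1 (26.2 ± 16.2 FPKM) and AIG1 (1.01 ± 0.117 FPKM; SD, n = 3 each) were higher in val1, by 3.00 and 1.00 on the log2(FPKM + 1) scale, where AIG1 was listed at 0 in WT (limma adjusted p = 0.0476 and 0.0291). Both calls were lost in several leave-one-out fits, with adjusted p up to 0.162 and 0.0985. NUDT7, a Nudix hydrolase gene that restrains defence, was lower in val2, at 14.3 ± 2.58 FPKM against 49.1 ± 12.6 in WT (SD, n = 3 each; log2 change -1.69, limma adjusted p = 0.00733), and was not called in val1 val2 (41.4 ± 16.2 FPKM; log2 change -0.27, adjusted p = 0.418).

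Of 15 transcription factors upstream of salicylic acid synthesis, 9 were called higher and 3 lower in val1 val2 against WT, with a median log2 change of 1.43. The shares of all genes were 24.4% higher and 34.4% lower, and 2 of the 15 passed the filter through val1 val2 alone. SARD1 and CBP60g, the direct activators of ICS1, were among those higher, with log2 changes of 1.89 and 1.45 (limma adjusted p = 0.000215 and 0.000432). They are given here for that role, after their values were seen. SARD1 was under 1 FPKM in every library outside val1 val2, so it is 1 of those 2 and its difference follows in part from the filter. The largest changes were those of WRKY46, WRKY54 and WRKY40, members of the WRKY family of defence regulators. WRKY46 averaged 26.5 ± 8.44 FPKM in val1 val2 and 1.06 ± 1.01 in WT (SD, n = 3 each; log2 change 3.84, adjusted p = 5.04e-06). WRKY54 averaged 3.72 ± 1.23 FPKM in val1 val2 and was listed at 0 in WT (adjusted p = 0.000154). WRKY40 averaged 61.7 ± 48.3 FPKM in val1 val2 and 14.1 ± 7.88 in WT (adjusted p = 0.00605), and its call was lost without the 3 libraries with an unbroken VAL2 locus (adjusted p = 0.134).

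In val1 WRKY28, another activator of ICS1, was higher, at 9.64 ± 1.02 FPKM against 3.82 ± 1.11 in WT (SD, n = 3 each; log2 change 1.17, limma adjusted p = 0.00584). ICS1 itself was not called there. In val2 WRKY18 was lower, at 4.87 ± 0.935 FPKM against 43.5 ± 6.36 in WT (log2 change -2.92, adjusted p = 0.00352), whereas in val1 val2 it averaged 52.8 ± 36.5 FPKM and was not called (18.8, 48.3 and 91.4 FPKM in the 3 libraries). Without the 3 libraries with an unbroken VAL2 locus, which leaves the lowest of these, it was lower in val1 val2 too (log2 change -1.16, adjusted p = 0.000916). The lower genes of the list in val1 val2 were CAMTA2, CAMTA3 and TCP9, the last a call lost in 14 of 20 alternatives. They were named after their values were seen. CAMTA3 is a calmodulin-binding factor that represses salicylic acid synthesis, and it averaged 18.5 ± 6.39 FPKM in val1 val2 and 31.5 ± 1.99 in WT (SD, n = 3 each; log2 change -0.78, adjusted p = 0.00895).

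Of the receptors and cofactors 7 of 14 were called higher and 5 lower in val1 val2 against WT, with a median log2 change of 0.36. The shares of all genes were 24.4% higher and 34.4% lower, and 1 of the 14 passed the filter through val1 val2 alone. NIMIN2 and NIMIN1 encode small proteins that bind NPR1. NIMIN2 averaged 43.6 ± 14.5 FPKM in val1 val2 and 2.96 ± 0.865 in WT (SD, n = 3 each; log2 change 3.46, limma adjusted p = 4.24e-06). NIMIN1 averaged 2.26 ± 0.459 FPKM in val1 val2 and was listed at 0 in the other 9 libraries. TGA4, a bZIP partner of NPR1, was lower, at 2.68 ± 0.432 FPKM in val1 val2 and 8.87 ± 3.08 in WT (log2 change -1.39, adjusted p = 0.000417). Among the receptors related to NPR1, NPR3 was called higher (log2 change 1.02, adjusted p = 0.00146) and NPR4 lower (log2 change -0.45, adjusted p = 0.0165; lost without WT replicate 2 or 3 or val1 val2 replicate 1, with adjusted p up to 0.0556). These 2 were picked for comparison with NPR1 after their values were seen. None of the list was called in val1 or val2.

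Of 7 further genes of salicylic acid synthesis and transport, 3 were higher and 3 lower in val1 val2. The shares of all genes were 24.4% higher and 34.4% lower. PAL1, a phenylalanine ammonia-lyase gene of the second route to salicylic acid and of phenylpropanoids, averaged 168 ± 13.3 FPKM in val1 val2 and 34.6 ± 1.06 in WT (SD, n = 3 each; log2 change 2.24, limma adjusted p = 5.20e-08). PAL3 was lower, at 2.07 ± 1.67 FPKM in val1 val2 and 7.09 ± 0.907 in WT (log2 change -1.52, adjusted p = 0.000832). ICS2, the second isochorismate synthase gene, was also lower, at 0.212 ± 0.367 FPKM in val1 val2 and 1.92 ± 0.504 in WT (log2 change -1.30, adjusted p = 0.00373), opposite in sign to ICS1. In val2 PAL4 was higher (10.02 ± 1.63 FPKM against 6.28 ± 0.684 in WT; log2 change 0.59, adjusted p = 0.0488), a call lost in 15 of 19 alternatives.

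Genes of conjugation and breakdown of salicylic acid were higher or not called in the double mutant, 4 of 9 higher and none lower. DLO1 and DLO2, both among the 4, passed the filter through val1 val2 alone. The shares of all genes were 24.4% higher and 34.4% lower. DMR6, which encodes a salicylic acid hydroxylase, averaged 32.1 ± 0.947 FPKM in val1 val2 and 7.49 ± 1.17 in WT (SD, n = 3 each; log2 change 1.97, limma adjusted p = 5.65e-07). Its relatives DLO2 and DLO1 averaged 21.2 ± 4.34 and 2.67 ± 1.11 FPKM in val1 val2 and were listed at 0 in the other 9 libraries. UGT74F2, a glucosyltransferase gene that stores salicylic acid as its glucose ester, was higher in val1 and val2 but not called in the double mutant. It averaged 61.0 ± 0.794 FPKM in val1, 102 ± 14.3 in val2 and 44.9 ± 5.58 in val1 val2, against 40.5 ± 2.72 in WT. Its log2 change was 0.58 in val1 (adjusted p = 0.0285, lost in 8 of 20 alternatives) and 1.30 in val2 (adjusted p = 0.000356). The methyl salicylate esterase genes MES9, higher in val1 (log2 change 0.66, adjusted p = 0.0350, lost in 13 of 20 alternatives), and MES1, lower in val2 (log2 change -1.39, adjusted p = 0.00818), were not called in val1 val2 with all libraries, where MES1 was called lower without val1 replicate 2 (adjusted p = 0.0494).

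Partners of EDS1 and PAD4 and genes of N-hydroxypipecolic acid, the signal of systemic immunity, were called higher for 3 of 9 and lower for 3 in val1 val2, where 24.4% of all genes were higher and 34.4% lower. ADR1, a helper immune receptor that acts with EDS1 and PAD4, averaged 14.1 ± 5.22 FPKM in val1 val2 and 4.61 ± 0.763 in WT (SD, n = 3 each; log2 change 1.37, limma adjusted p = 0.000509). ACD6, a membrane protein that promotes salicylic acid signalling, was lower, at 4.27 ± 3.11 FPKM in val1 val2 and 17.6 ± 3.25 in WT (log2 change -1.99, adjusted p = 0.000811). It averaged 10.7 ± 1.70 FPKM in val1 and 6.55 ± 0.459 in val2 (SD, n = 3 each) and was called in neither. Its interaction of -0.05 was not called (limma adjusted p = 0.947). NDR1, a membrane protein of another branch of receptor signalling, was lower in val2 and val1 val2, at 2.85 ± 0.138 and 4.97 ± 3.61 FPKM against 11.4 ± 2.095 in WT (log2 changes -1.67 and -1.22, adjusted p = 0.0211 and 0.00988). In val1 NDR1 averaged 5.52 ± 0.336 FPKM (SD, n = 3) and was not called. The val2 call of NDR1 was lost without WT replicate 1 or 2 or any single val2 library (adjusted p up to 0.0878). FMO1, the enzyme that makes N-hydroxypipecolic acid, was not tested because it did not reach 1 FPKM in at least 3 libraries. It stood at 16.0 and 8.88 FPKM in val1 val2 replicates 2 and 3, was missing in replicate 1 and was listed at 0 in the other 9 libraries.

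PR genes that answer to jasmonate and ethylene, the hormones usually set against salicylic acid, were also examined. Of 6 tested, 4 were higher and 1 was lower in val1 val2 against WT, where 24.4% of all genes were higher and 34.4% lower. PDF1.2C passed the filter through val1 val2 alone. PR3, a chitinase gene, averaged 112 ± 15.1 FPKM in val1 val2 and 12.8 ± 0.860 in WT (SD, n = 3 each; log2 change 3.03, limma adjusted p = 7.22e-08). PR4, which encodes a hevein-like protein, was the most abundant, at 976 ± 79.2 FPKM in val1 val2 and 189 ± 12.5 in WT (log2 change 2.36, adjusted p = 9.43e-07), and was lower in val2 (90.7 ± 22.7 FPKM; log2 change -1.08, adjusted p = 0.00580). The plant defensin genes PDF1.2B and PDF1.2C averaged 36.3 ± 16.2 and 7.72 ± 2.56 FPKM in val1 val2 and were listed at 0 in WT. They are near-identical copies of each other, so the split of reads between them is uncertain. PDF1.2A, the other PDF1.2 gene of the list, was tested and was not called in this comparison.

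Of the 18 neighbours of the members in the genome 9 were tested, of which 2 were called higher and 3 lower in val1 val2 against WT, near the shares of all genes (24.4% higher and 34.4% lower). PRB1, the gene beside PR1 and a related one of basic charge, was lower in the double mutant, at 0.364 ± 0.630 FPKM in val1 val2 and 3.86 ± 0.210 in WT (SD, n = 3 each; log2 change -1.93, limma adjusted p = 7.11e-05). RAP2.6L, an ethylene response factor gene beside PBS3, had the largest change of those tested, with 52.6 ± 2.28 FPKM in val1 val2 and 4.46 ± 0.167 in WT (log2 change 3.29, adjusted p = 5.96e-09). OEP7, beside PAD4, was higher (log2 change 0.49, adjusted p = 0.00829), and RR5, beside EDS1, and TLP-3, beside PR5, were lower (log2 changes -0.76 and -0.98, adjusted p = 0.00188 and 0.000233). These neighbours were named after their values were seen.

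The genes with the pattern most like that of PR1 and ICS1 were sought among 16150 genes with a value in every library, by Pearson's r of log2(FPKM + 1) over the 12 libraries. For PR1 they were GA20OX3, AT2G41670, DPBF2, AT5G02210 and AT5G44360, with r of 0.99995 to 0.99999. GA20OX3 encodes a gibberellin-synthesis enzyme and DPBF2 a bZIP factor of developing seeds, and their means in val1 val2 were 115 and 35.7 FPKM. For ICS1 they were AT5G22520, CRK36, MSRB8, HSP17.6II and AT3G56891, with r of 0.9946 to 0.9952. CRK36 encodes a receptor-like kinase and MSRB8 a methionine sulfoxide reductase, with means of 4.45 and 10.4 FPKM in val1 val2. All 10 genes were listed at 0 in the other 9 libraries, so r rests on the split between the double mutant and the rest and cannot be computed within the 9. Among all 17840 genes tested, 491 (2.75%) had no value above 0 in those 9 libraries. The named genes are therefore not singled out by this split. These values describe the likeness and carry no test.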

How the data were processed

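RNA was sequenced from 12 seedling libraries of 4 genotypes, grouped by the sample titles. The file names of val1 replicates 2 and 3 carry other or no replicate numbers; the titles were followed, so only the numbering within val1 is in doubt. The deposited values are FPKM that the authors computed per library with Cufflinks, 1 line per assembled locus, per the file headers. The build was TAIR10 and the tools Cufflinks 2.2.1, TopHat2 2.1.1, MACS2 and Cuffdiff, per the submitters' processing notes, which give no roles. The files hold no read counts and no gene names, so depth and strand are unknown, and the authors' bounds per locus are the measure of precision. FPKM are relative to each library's total: the 10 most abundant loci held 10.9% to 14.8% of the FPKM in val1 val2 and 5.51% to 7.75% elsewhere, so a level also depends on the rest of the library.

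Loci were assigned by position to the protein-coding genes of RefSeq's TAIR10.1 table, and a gene's value was the sum of each locus's FPKM times the share of the gene covered. Since the build names differ, positions were compared: on each chromosome loci started a median of 51.0 to 79.0 bases within the gene, and no coordinates of the table are printed. A value was left missing where 1 locus held 50% or more of more than 1 gene without the gene making up 75% of it, where over 25% of the gene's locus was shared with a neighbour, or where no locus was listed but both other replicates reached 10 FPKM. Genes with at least 1 FPKM in 3 libraries and 2 values per genotype were fitted with limma 3.58.1 (R 4.3.3; trend, 4 group means, 12 libraries) on log2(FPKM + 1). P-values are two-sided and adjusted over 17840 genes within each comparison. The fit was tested on simulated data. Python 3.11.15, numpy 2.4.6, pandas 2.3.3 and matplotlib 3.10.9 were used.

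The members, lists and tests were chosen with earlier results of these data known. All members are described; of each list, at most 3 called genes with the largest change in a comparison of a mutant with WT are named by rule, and for PR1 and ICS1 the 5 genes with the highest correlation. Other named genes (SARD1, CBP60g, CAMTA2, CAMTA3, TCP9, NPR3, NPR4, NUDT6, EDS1B, FMO1, PDF1.2A, PRB1 and the neighbours) were chosen after their values were seen. Alternatives were the pseudocount (0.1), no filter, the largest locus as listed, quantile normalization, missing values as 0, a replicate block, each library left out (with the genes of the main fit kept) and, chosen after seeing the data, leaving out libraries with an unbroken VAL1 or VAL2 locus. Where 1 library of a group remained, it was assumed to vary like the other groups. Genome binding data were not analysed here.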

Additional observations from a re-analysis of the deposited data

Results flagged for a closer look

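The interaction, the change in val1 val2 against WT beyond the sum of the val1 and val2 changes, was called by limma (adjusted p under 0.05 over 17840 genes) for 6 of the 9 members, all positive. It was positive for 43 and negative for 9 of the 74 list genes, where it was called for 46.7% of all genes tested (21.3% positive and 25.4% negative). PR1, PR2 and PBS3 and 12 of the 74 list genes passed the filter through val1 val2 alone, so part of both counts follows from the filter. Of all genes tested 3.73% passed in this way. The genes given here are those named in the text, most of them for their change in val1 val2, so they do not stand for the lists. Among the members the interaction on the log2(FPKM + 1) scale was 8.44 for PR1, 5.80 for PR2, 2.67 for PBS3, 2.25 for ICS1, 2.13 for EDS5 and 1.26 for PAD4. That of EDS5 was lost in 13 of 20 alternatives. Among the named induced genes and PR genes it was 5.88 for SAG13, 5.74 for PNP-A, 4.34 for PDF1.2B, 3.88 for AIG1, 3.53 for PR4, 3.08 for PDF1.2C, 2.83 for PR3, 2.51 for NUDT7 and -1.72 for PRB1. Among the transcription factors it was 5.64 for WRKY46, 4.50 for WRKY40, 3.84 for WRKY18, 3.06 for SARD1, 2.59 for CBP60g, 1.30 for WRKY54, 0.881 for WRKY28 and -0.676 for CAMTA2. Among receptors, cofactors and signalling partners it was 3.62 for NIMIN2, 1.69 for NIMIN1, 1.58 for ADR1, 1.37 for NDR1, 1.22 for NPR3, -1.11 for NPR4 and -1.70 for TGA4. Among genes of synthesis and breakdown it was 4.45 for DLO2, 2.2 for PAL1, 1.86 for DMR6, 1.83 for DLO1, 0.685 for PAL4, -0.766 for MES9, -1.74 for UGT74F2 and -2.24 for ICS2. WRKY18, PR4 and NUDT7 were lower in val2 than in WT but not in val1 val2, where, with all libraries, WRKY18 and NUDT7 were not called and PR4 was higher. The calls of NDR1, WRKY54, PAL4, WRKY28, CAMTA2 and MES9 were lost in 13, 12, 7, 2, 2 and 1 of their alternatives.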

How the results depend on the processing

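Over 20 alternatives, 79 of 100 called gene results kept their direction and call in every one. Many of these results were picked for a called change, and genes such as PR1 count in several comparisons that share libraries. Genes at 0 outside val1 val2, such as PR1 and PR2, could hardly lose their calls. The count therefore describes the named results and does not measure robustness. In val1 val2 against WT, PR1, PR2, PBS3, ICS1 and EDS1 kept their calls in each alternative that gave a value, and 7 members were called, 6 to 7 in leave-one-out fits and 4 without the 3 libraries with an unbroken VAL2 locus. EDS1 could not be fitted there, since its single value in the remaining double-mutant library is missing. The member called in val1 (1) fell to 0 with the largest locus, with missing values as 0 and without those 3 libraries, and ranged from 0 to 1 in leave-one-out fits. The member called in val2 (1) fell to 0 in the same 3 alternatives and with the replicate block, and ranged from 0 to 2 in leave-one-out fits. The missing value of EDS1 in val1 val2 replicate 1, entered as 0 or as the fused locus, widens its spread in the shared fit. Calls over all genes ranged in leave-one-out fits from 395 to 1283 in val1 (696 with all libraries), from 314 to 1626 in val2 (790) and from 616 to 1876 in val2 against val1 (1133). They came to 1384 in val1 without the 3 VAL2-unbroken libraries and 1446 in val2 without the 2 VAL1-unbroken ones, the cause being untested.

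Reversed signs touched uncalled changes, with the interaction of PAL4 as the exception. PR5 in val1 ranged from -0.0233 to 0.284 in leave-one-out fits, ICS1 in val1 from -0.0156 to 0.0938 and ICS1 in val2 from -0.142 to 0.0329. ICS1 was also at -0.0156 in val1 without the 2 VAL1-unbroken libraries and at 0.0329 in val2 without the 3 VAL2-unbroken ones. With missing values as 0 the interaction was -0.495 for EDS1 and -0.68 for PAL4, each by the zero itself. WRKY18 in val1 val2 ranged from -0.4997 to 0.611 in leave-one-out fits and was -0.15 with the largest locus, -0.4997 without the 2 VAL1-unbroken libraries and -1.157 without the 3 VAL2-unbroken ones. The interaction of ACD6 ranged from -0.4925 to 0.4396 in leave-one-out fits and that of TCP9 from -0.2814 to 0.3509, and that of TCP9 was -0.0443 with the largest locus, -0.2616 without the 2 VAL1-unbroken libraries and -0.649 without the 3 VAL2-unbroken ones, where it was called. The interaction of PCC1 was -0.583 with a pseudocount of 0.1 and ranged from -0.145 to 1.32 in leave-one-out fits.

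Same-numbered replicates did not deviate together (r from -0.04 to 0.08), so the numbers were not taken as pairs. With the replicate block 7 members were called in val1 val2 against WT (7 without), 1 in val1 (1 without), 0 in val2 and 5 in the interaction (6 without, EDS5 lost at an adjusted p of 0.0554). Depth could not be assessed, so genes listed at 0 may have been present, and not only below the lowest FPKM listed. EDS5 was listed at 0 in val2 replicate 3, while val2 replicates 1 and 2 held 3.10 and 4.40 FPKM. No locus was listed for 208 values where both other replicates reached 10 FPKM, and these were left missing.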
